A study of Homo sapiens with 12 samples.

Results

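The genes for the protein subunits of the mitochondrial ribosome were measured by RNA-seq in the C4-2 line, an LNCaP-derived prostate cancer line that grows at castrate androgen levels. They were taken as every row of the count table whose symbol is MRPL or MRPS with a number and at most 1 closing letter A, B or C, which leaves out pseudogenes. The rule gave 78 of 56269 genes, 51 of the large ribosomal subunit, 26 of the small subunit, and MRPS36, a protein now assigned to the oxoglutarate dehydrogenase complex. All 78 passed the filter on low counts, which kept 16115 genes. The 4 groups of 3 libraries were paxillin siRNA with DHT, paxillin siRNA with vehicle, nonspecific siRNA with DHT, and nonspecific siRNA with vehicle. All cells, controls included, carried an siRNA for 48 h and spent 12 h without serum before 24 h of either 2.5 nM of the androgen dihydrotestosterone (DHT) or its ethanol vehicle. Only 1 cell line was used. The labels do not say whether the 3 libraries of a group came from separate cultures, and the p-values reflect only how far these libraries vary, which may be technical variation.

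Library totals ran from 11944906 counts in nonspecific vehicle replicate 1 to 32040465, so that 1 count stood for 0.0312 to 0.0837 CPM, counts scaled to the size of the library. PXN, the paxillin gene, had 11.6 ± 2.43 CPM in paxillin siRNA with DHT and 127 ± 8.55 CPM in nonspecific siRNA with DHT (SD, n = 3 each). In vehicle it had 13.8 ± 2.51 CPM with paxillin siRNA and 146 ± 6.65 CPM with nonspecific siRNA (SD, n = 3 each). The luminal prostate genes KLK3, KLK2, FOLH1, HOXB13, KRT8, KRT18 and TMPRSS2 were all well above 0, with a lowest library value of 96.3 CPM. Of 10 markers of basal, immune, endothelial and fibroblast cells, TP63, KRT5, PTPRC, CD68, PECAM1 and DCN had 0 to 3 counts per library and KRT14 had 0 to 16. COL3A1 had 2 to 50, VWF 169 to 395 and COL1A1 584 to 1035 counts per library.

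Mitochondrial ribosomes translate the few messenger RNAs made from mitochondrial DNA, all of which encode hydrophobic subunits of the respiratory chain and the ATP synthase. Their ribosomal RNAs are made inside the organelle, while every protein subunit is encoded in the nucleus and imported, so a ribosome needs transcripts from both genomes. Some subunits descend from bacterial ribosomal proteins (names in u or b in the unified nomenclature, such as uL24m and bL12m) and others were gained by mitochondria (names in m, such as mL66). Transcription of nuclear genes for mitochondrial proteins is known to use ETS family factors such as GABPA, nuclear respiratory factor 1 (NRF1) and YY1, with coactivators of the PGC-1 family.

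The stretches below run from 120 bases before to 25 bases after the RefSeq gene start (GRCh38.p14, 5′ to 3′ on the gene's strand). They are shown because the first 6 genes rose with DHT under both siRNAs and under all 4 scalings tried, the next pair fell with DHT, and the last 3 differed with paxillin siRNA. Capitals mark the ETS motif CCGGAAG, the NRF1 motif (GCGCA and GCGC parted by 1 base of any kind) and the YY1 motif AAGATGGC, searched on both strands.
MRPS18A (chr6:43687767-43687911, minus strand): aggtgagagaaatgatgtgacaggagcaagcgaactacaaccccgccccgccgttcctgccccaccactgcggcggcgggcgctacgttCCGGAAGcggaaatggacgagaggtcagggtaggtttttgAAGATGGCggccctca
MRPL17 (chr11:6683316-6683460, minus strand): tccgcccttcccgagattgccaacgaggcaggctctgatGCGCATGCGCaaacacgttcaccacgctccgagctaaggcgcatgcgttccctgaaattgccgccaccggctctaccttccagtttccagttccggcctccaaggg
MRPL36 (chr5:1799813-1799957, minus strand): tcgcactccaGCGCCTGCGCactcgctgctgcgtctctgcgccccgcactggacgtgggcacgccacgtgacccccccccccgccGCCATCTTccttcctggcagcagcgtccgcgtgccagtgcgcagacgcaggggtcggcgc
MRPL42 (chr12:93467394-93467538, plus strand): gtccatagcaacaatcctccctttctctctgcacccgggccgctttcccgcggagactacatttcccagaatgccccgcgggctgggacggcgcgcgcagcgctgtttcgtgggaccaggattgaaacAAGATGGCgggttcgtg
MRPL49 (chr11:65122063-65122207, plus strand): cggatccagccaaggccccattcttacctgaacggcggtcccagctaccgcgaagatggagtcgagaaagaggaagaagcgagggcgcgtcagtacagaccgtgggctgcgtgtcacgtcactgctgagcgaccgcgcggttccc
MRPS26 (chr20:3045932-3046076, plus strand): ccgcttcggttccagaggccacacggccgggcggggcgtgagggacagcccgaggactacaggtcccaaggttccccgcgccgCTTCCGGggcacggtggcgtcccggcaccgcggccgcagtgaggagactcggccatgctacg
MRPS27 (chr5:72320216-72320360, minus strand): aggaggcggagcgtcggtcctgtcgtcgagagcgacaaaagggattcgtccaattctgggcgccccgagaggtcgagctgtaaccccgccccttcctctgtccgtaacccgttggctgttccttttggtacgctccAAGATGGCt
MRPS6 (chr21:34073458-34073602, plus strand): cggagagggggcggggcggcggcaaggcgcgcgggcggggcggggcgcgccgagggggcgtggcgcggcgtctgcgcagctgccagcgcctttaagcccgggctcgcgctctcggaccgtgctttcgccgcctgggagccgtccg
MRPL12 (chr17:81703247-81703391, plus strand): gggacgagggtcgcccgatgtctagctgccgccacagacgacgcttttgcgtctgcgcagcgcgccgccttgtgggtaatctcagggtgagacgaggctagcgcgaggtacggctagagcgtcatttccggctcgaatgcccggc
MRPL41 (chr9:137551759-137551903, plus strand): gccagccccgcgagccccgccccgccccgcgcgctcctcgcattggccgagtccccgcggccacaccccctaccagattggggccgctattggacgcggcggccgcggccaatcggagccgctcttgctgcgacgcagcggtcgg
MRPL19 (chr2:75646663-75646807, plus strand): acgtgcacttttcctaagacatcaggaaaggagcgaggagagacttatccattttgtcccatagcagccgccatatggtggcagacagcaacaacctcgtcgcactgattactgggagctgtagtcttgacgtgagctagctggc

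The 6 genes that rose with DHT under both siRNAs do not share 1 arrangement. MRPS18A holds an ETS motif 31 bases before the start and a YY1 motif 10 bases after it, MRPL17 an NRF1 motif, MRPL36 an NRF1 and a YY1 motif, MRPL42 a YY1 motif, and MRPS26 an ETS motif, while the MRPL49 stretch holds none of these letters. MRPS27, which fell, holds a YY1 motif 17 bases after the start, and the stretches of MRPS6, MRPL12, MRPL41 and MRPL19 hold none. MRPL10, MRPL13, MRPL15, MRPL2, MRPL21, MRPL23, MRPL35, MRPS28 and MRPS36 have no entry in the promoter table, so 69 of 78 genes were searched over the full windows of the table.

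Over those windows, ETS motifs stood in 29 of 69 genes (42%), against 10.7% of all 27305 windows in the table. YY1 motifs stood in 20 of 69 (29%), against 3.03%, and NRF1 motifs in 8 of 69 (11.6%), against 6.28%. The windows of all genes include genes that did not pass the filter on low counts, and expressed genes alone were not compared. In all, 45 of 69 windows held at least 1 of the 3. Of 21 YY1 matches, 15 began within 50 bases after the start, and of 39 ETS matches, 27 lay within 100 bases before it, as the plot of motif distances shows. The GC box GGGCGG, a subset of the letters bound by SP1, stood in 60.9% of the 69 windows and in 44.6% of all windows. TATAAA stood in 2.9% against 12%, and the median GC content was 60.3% against 58.3%. A match describes letters and not a bound site. Of the 29 genes with an ETS motif, 9 rose with DHT under nonspecific siRNA, and of the 40 without, 22 rose. With DHT under paxillin siRNA 4 and 8 rose, with paxillin siRNA in vehicle 5 and 13, and in DHT 0 and 4. The rising share was thus lower with an ETS motif in each comparison of 2 groups. Of the 20 with a YY1 motif 10 rose with DHT under nonspecific siRNA, and of the 49 without, 21 rose. The other comparisons, in the same order, gave 4 and 8, 6 and 12, and 0 and 4. For NRF1, 4 of 8 with the motif and 27 of 61 without rose with DHT under nonspecific siRNA, then 2 and 10, 3 and 15, and 1 and 3. These shares were not tested.

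**Figure D1:**
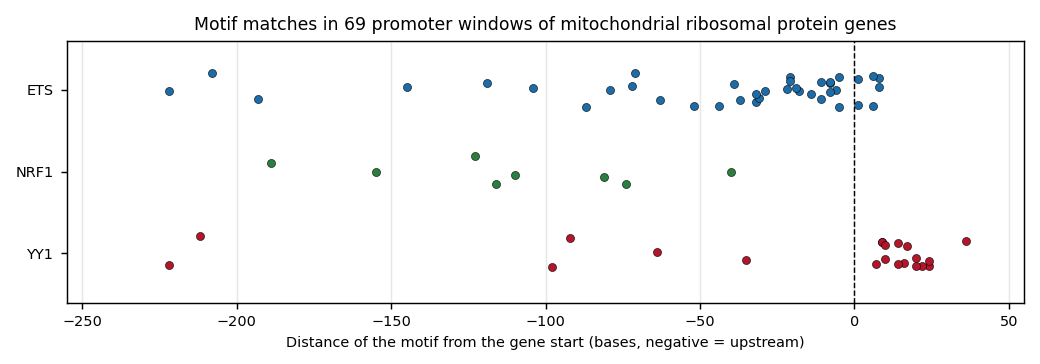
Distance in bases from the gene start (x axis, dashed line at the start, negative upstream) of every ETS, NRF1 and YY1 match in 69 promoter windows, 1 point per match, with vertical scatter only to separate points. Of 21 YY1 matches 15 lie just after the start, and of 39 ETS matches 27 lie within 100 bases before it.

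The mitochondrial ribosomal protein genes were expressed at moderate levels, mostly above that of the typical gene. Levels per kilobase of exon had a median of 20 CPM per kb over the 78 genes and 4.38 CPM per kb over 13977 tested genes with a known length, and 69 of 78 lay above the median of all genes. The highest were MRPL37 (94.4 CPM per kb), MRPL51 (93.9), MRPS34 (91.9), MRPL41 (84) and MRPL24 (74.8). The first 4 are subunits that mitochondria gained, and MRPL24 is uL24m, a protein near the exit tunnel of the large subunit. The coefficient of variation between replicates had a median of 4.14% to 6.2% per group over the 78 genes, and 8.16% to 9.51% over all tested genes. These sets differ in level, and genes of like level were not compared.

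At the low end, MRPS24, which encodes uS3m of the small subunit, had only 3 to 15 counts per library, or 0.135 CPM per kb. MRPL38 had 0.448, MRPL53 0.882, MRPL46 1.03 and MRPS18C 2.9 CPM per kb. Of the exon bases of MRPS24, MRPL38 and MRPL53, 23.2%, 37.5% and 45.2% overlap another annotated gene on the same strand. The genes that overlap MRPS24 and MRPL53 (URGCP-MRPS24 and CCDC142) have rows in the count table. AC087289.3, which overlaps MRPL38, has none under that name. Reads that fit 2 genes may have been left uncounted, so the levels of these 3 genes are uncertain. Their log2 fold changes carried standard errors (SE) of 0.25 to 0.49 in the comparisons of 2 groups, against 0.05 to 0.14 for the other mitochondrial ribosomal protein genes named here. None of the 3 passed in any comparison of 2 groups in the main fit by edgeR's quasi-likelihood test, nor by DESeq2 or limma-voom. For DHT under nonspecific siRNA, 2 of 20 other fits called MRPL38. They include scaling by library totals alone (log2 fold change -0.72, edgeR adjusted p = 0.029).

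**Figure D2:**
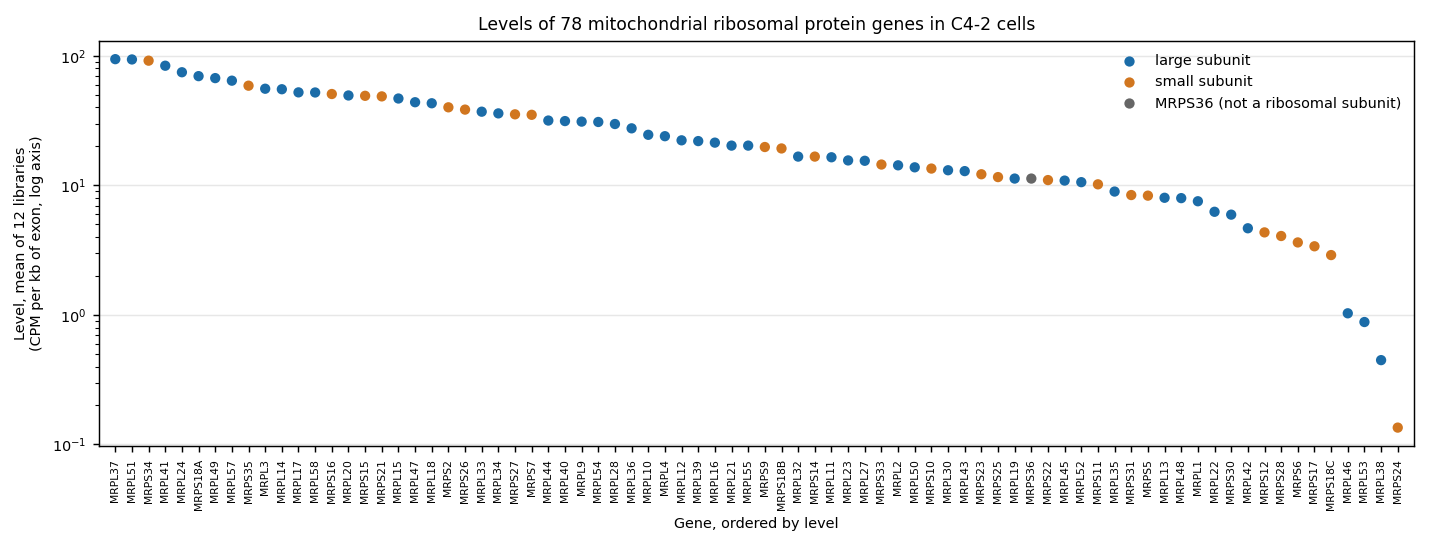
Level of each of the 78 genes (y axis, mean CPM per kb of exon over 12 libraries, log axis), ordered from high to low and coloured by ribosomal subunit. Levels run from 94.4 CPM per kb for MRPL37 to 0.135 for MRPS24, and genes of both subunits are spread along the order.

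DHT under nonspecific siRNA raised many of these genes by small amounts. Of 78 genes, 34 rose and 3 fell at an adjusted p under 0.05 (edgeR's quasi-likelihood test, Benjamini-Hochberg over all genes), and 41 did not pass. Over all genes tested 40.5% passed, 21.6% upward and 18.9% downward, so the rising share of 43.6% stood above the background and the falling share below it. The median log2 fold change was 0.15 over the 78 genes and -0.01 over all genes, and the quartiles of the 78 were 0.02 and 0.27. All 3 DHT libraries were higher than all 3 vehicle libraries in 44 of 78 genes, against 26.3% of all genes, and lower in 7, against 24%. In these bulk libraries fewer cells of a type and less RNA per cell cannot be told apart.

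The size of that rise depends on the scaling, and so does its direction for the weaker genes. TMM sets the typical gene to no change. Upper-quartile scaling moved the median of all genes to -0.08 and gave 18 rises and 5 falls among the 78. Library totals alone moved it to -0.16 and gave 10 rises and 13 falls. The distance of the 78 genes' median from that of all genes was 0.16 under each of the 4 scalings. As a share of all counts, the 78 genes together made up 0.482% to 0.502% in nonspecific DHT and 0.473% to 0.494% in nonspecific vehicle, which overlap. Summed over the 78 genes after TMM scaling they came to 5210, 5296 and 5111 CPM in nonspecific DHT and 4604, 4609 and 4704 CPM in nonspecific vehicle, which do not. Relative to the typical gene the set rose, and as a share of the library it did not separate.

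DHT under paxillin siRNA gave fewer calls: 12 rose and 4 fell, with 62 not passing. Over all genes 38% passed, 20.1% upward and 17.9% downward, so the 15.4% of the 78 that rose lay under the background. The median log2 fold change was 0.05, against -0.01 over all genes. Upper-quartile scaling gave 6 rises and 9 falls, with the median of all genes at -0.09, and library totals gave 6 and 13, with it at -0.14. The median of the 78 stayed 0.06 above that of all genes under each scaling. Summed over the 78 genes, TMM-scaled levels were 5304, 5364 and 4981 CPM in paxillin siRNA with DHT and 4888, 5042 and 4917 CPM in paxillin siRNA with vehicle. These groups overlap, although DHT was higher in each of the 3 pairs of libraries with the same replicate number. As a share of all counts the order was the reverse. The 78 genes made up 0.505%, 0.519% and 0.484% with DHT and 0.512%, 0.538% and 0.515% with vehicle, lower with DHT in each same-numbered pair. The 12 genes that rose are all among the 34 of the nonspecific comparison (35.3% of them), and 3 of the 4 that fell are the 3 that fell there. The 2 comparisons share no library.

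**Figure D3:**
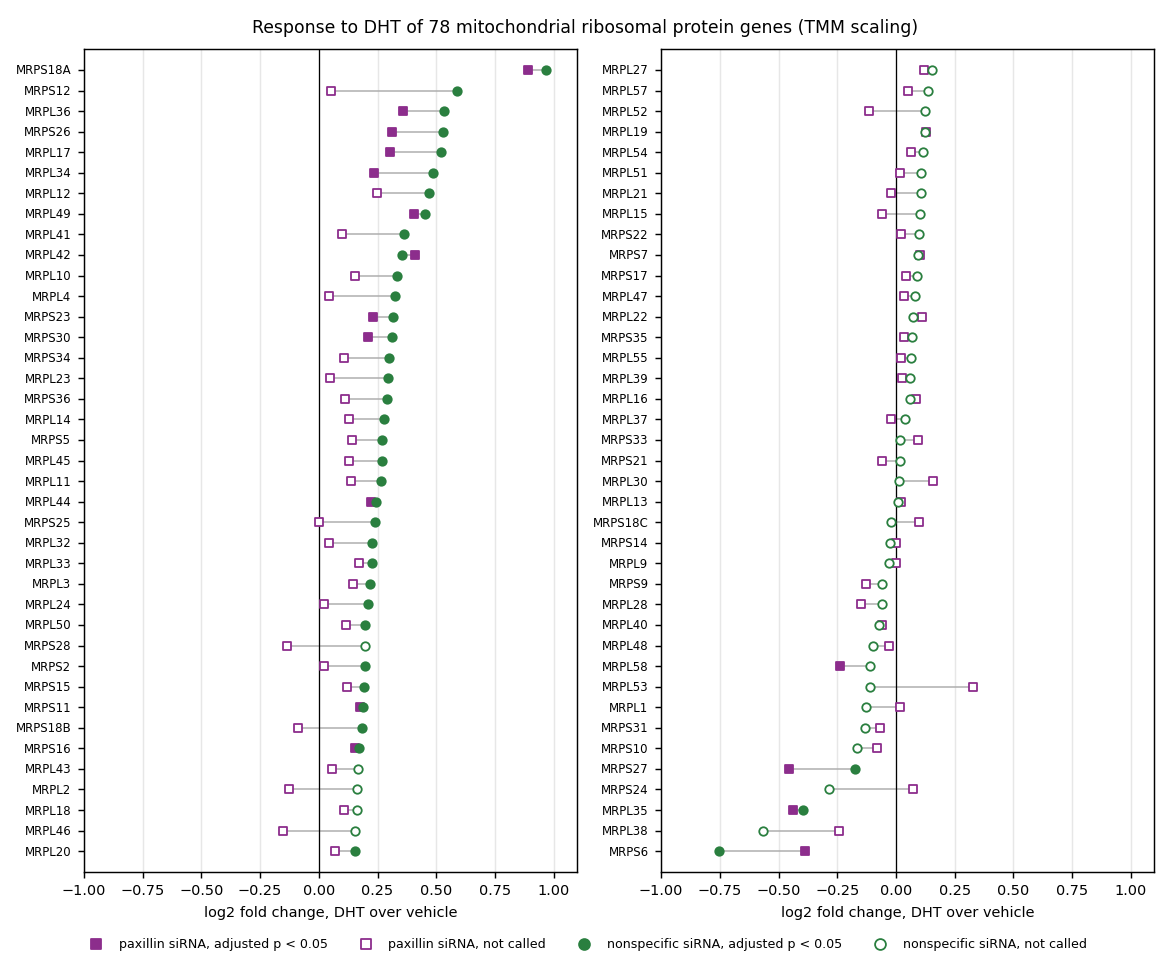
Log2 fold change, DHT over vehicle, of each of the 78 genes (x axis) under paxillin siRNA (squares) and nonspecific siRNA (circles), ordered by the value under nonspecific siRNA, with filled symbols for an adjusted p under 0.05. MRPS18A stands apart at the top and MRPS6, MRPL35 and MRPS27 are the called genes below 0 under both siRNAs.

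MRPS18A had the largest rise. Despite its symbol, which comes from its likeness to the bacterial small-subunit protein S18, its product mL66 sits in the large subunit. It had 122, 126 and 120 CPM in paxillin siRNA with DHT and 63.6, 68.1 and 67.2 CPM in paxillin siRNA with vehicle, a 1.85-fold difference (log2 fold change 0.89, SE 0.07, edgeR adjusted p = 7.59e-09). It had 124, 106 and 105 CPM in nonspecific DHT and 60, 57.2 and 54.8 CPM in nonspecific vehicle, a 1.96-fold difference (log2 fold change 0.97, SE 0.07, edgeR adjusted p = 3.5e-09). Every DHT library lay far above every vehicle library under either siRNA. The gene lies at chr6:43671303-43687791 on the minus strand, and 47% of its exon bases overlap RSPH9 on the other strand, which had only 2 to 8 counts per library. Its paralogs did less: MRPS18B (mS40) had a log2 fold change of 0.18 (SE 0.07) under nonspecific siRNA, with an adjusted p of 0.0381, and MRPS18C (bS18m) one of -0.02 (SE 0.14), with 0.906 (both edgeR). MRPS18B was not called by DESeq2 (0.054), with upper-quartile scaling (0.206), with library totals (0.775), without the low-count filter (0.107) or in a fit to the compared groups alone (0.0801). It was also lost on leaving out nonspecific DHT replicate 1 (0.104) or 3 (0.086), or nonspecific vehicle replicate 1 (0.0945) or 2 (0.0751).

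MRPL17, MRPL36, MRPL42, MRPL49 and MRPS26 also rose under both siRNAs, under every scaling, tool, model and filter tried and without any single library. MRPL17 encodes bL17m of the large subunit. It had 140, 155 and 141 CPM in paxillin siRNA with DHT and 114, 122 and 118 CPM in paxillin siRNA with vehicle (log2 fold change 0.30, SE 0.06, edgeR adjusted p = 0.00041). In nonspecific DHT it had 124, 130 and 122 CPM, and in nonspecific vehicle 86.3, 86.5 and 89 CPM (log2 fold change 0.52, SE 0.06, edgeR adjusted p = 1.45e-06). DHT libraries lie above vehicle libraries under each siRNA, and nonspecific vehicle is the lowest of the 4 groups. MRPL36 encodes bL36m, a very small large-subunit protein. It had 46, 46.7 and 44.2 CPM in paxillin siRNA with DHT and 35.9, 35.2 and 35.8 CPM in paxillin siRNA with vehicle, and 40.1, 43.3 and 45.7 CPM in nonspecific DHT and 29.3, 29.8 and 29.9 CPM in nonspecific vehicle. DHT and vehicle are apart under both siRNAs, by log2 fold changes of 0.36 (SE 0.06, edgeR adjusted p = 0.000206) and 0.53 (SE 0.07, edgeR adjusted p = 3.46e-06).

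MRPL49 and MRPL42 moved by nearly the same amount under either siRNA, and both encode subunits without a bacterial counterpart (mL49 and mL42). MRPL49 had 234, 258 and 241 CPM in paxillin siRNA with DHT and 177, 193 and 183 CPM in paxillin siRNA with vehicle. It had 225, 239 and 230 CPM in nonspecific DHT and 165, 172 and 171 CPM in nonspecific vehicle. The log2 fold changes were 0.41 (SE 0.06, edgeR adjusted p = 2.63e-05) and 0.45 (SE 0.06, edgeR adjusted p = 8.2e-06). MRPL42 had 88.5, 89 and 84.9 CPM in paxillin siRNA with DHT and 66.5, 65.6 and 65.6 CPM in paxillin siRNA with vehicle. It had 86.7, 89.3 and 81.3 CPM in nonspecific DHT and 63.5, 68.9 and 68.5 CPM in nonspecific vehicle. For MRPL42 the log2 fold changes were 0.41 (SE 0.06, edgeR adjusted p = 1.86e-05) and 0.35 (SE 0.06, edgeR adjusted p = 9.64e-05), and the siRNA left no gap between groups of like treatment. MRPS26 (mS26, small subunit) had log2 fold changes of 0.31 (SE 0.07, edgeR adjusted p = 0.0014) under paxillin siRNA and 0.53 (SE 0.07, edgeR adjusted p = 1.1e-05) under nonspecific siRNA.

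MRPL12, MRPL34, MRPL41 and MRPS12 rose with DHT under nonspecific siRNA in every alternative. Under paxillin siRNA, MRPL12 (log2 fold change 0.25, SE 0.11, edgeR adjusted p = 0.0967) and MRPL41 (0.10, SE 0.06, edgeR adjusted p = 0.226) did not pass. MRPS12 encodes uS12m, a protein of the decoding centre. It had 10.6, 10.5 and 11.4 CPM in nonspecific DHT and 6.68, 7.63 and 7.14 CPM in nonspecific vehicle, with no overlap (log2 fold change 0.59, SE 0.12, edgeR adjusted p = 0.000867). Under paxillin siRNA its groups overlap, at 11.1, 10 and 8.16 CPM with DHT and 8.81, 10.1 and 9.38 CPM with vehicle (log2 fold change 0.05, SE 0.12, edgeR adjusted p = 0.759). In vehicle it was higher with paxillin siRNA (log2 fold change 0.39, SE 0.12, edgeR adjusted p = 0.0322), a call lost without any 1 nonspecific vehicle library (0.0745, 0.0542 and 0.0767 for replicates 1 to 3) and without paxillin vehicle replicate 2 (0.111) or 3 (0.0736). MRPS12 shares 16.3% of its exon bases with SARS2 on the other strand. MRPL34 (bL34m) had log2 fold changes of 0.23 (SE 0.08, edgeR adjusted p = 0.0274) under paxillin siRNA and 0.49 (SE 0.08, edgeR adjusted p = 0.000124) under nonspecific siRNA. The call under paxillin siRNA was lost without paxillin vehicle replicate 1 (adjusted p = 0.146, edgeR), paxillin DHT replicate 1 (0.0738) or paxillin DHT replicate 2 (0.0698), and with upper-quartile scaling (0.141) or library totals (0.323).

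MRPS6, MRPL35 and MRPS27 fell with DHT under both siRNAs, against the direction of most of the set. MRPS6 encodes bS6m of the small subunit. It had 12.2, 12.1 and 15.3 CPM in paxillin siRNA with DHT and 17.8, 16.4 and 17.5 CPM in paxillin siRNA with vehicle (log2 fold change -0.39, SE 0.1, edgeR adjusted p = 0.00497). It had 11.7, 10.9 and 13 CPM in nonspecific DHT and 20.5, 20.4 and 19.4 CPM in nonspecific vehicle (log2 fold change -0.75, SE 0.1, edgeR adjusted p = 1.2e-05). Vehicle libraries lie above DHT libraries in both cases, by 1.31-fold and 1.69-fold. MRPS6 lies at chr21:34073224-34143034 on the plus strand and shares exon bases on that strand with SLC5A3, a myo-inositol transporter gene. SLC5A3 fell too, with log2 fold changes of -0.51 (SE 0.11, edgeR adjusted p = 0.00164) under paxillin siRNA and -0.87 (SE 0.11, edgeR adjusted p = 8.91e-06) under nonspecific siRNA, and its part in the MRPS6 counts was not tested.

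MRPL35 (bL35m, large subunit) shares no exon base with another annotated gene. It had 25.6, 29.9 and 29.9 CPM in paxillin siRNA with DHT and 36.5, 39.9 and 39.2 CPM in paxillin siRNA with vehicle, and 28.9, 30.4 and 31.6 CPM in nonspecific DHT and 41.8, 37.9 and 40.4 CPM in nonspecific vehicle. The DHT libraries lay under the vehicle libraries in both arms, and the log2 fold changes were -0.44 (SE 0.08, edgeR adjusted p = 0.000162) and -0.40 (SE 0.08, edgeR adjusted p = 0.00044). MRPS27 encodes mS27, a small-subunit protein with pentatricopeptide repeats, the RNA-binding repeat common in organelle proteins. It had 197, 188 and 167 CPM in paxillin siRNA with DHT and 257, 255 and 246 CPM in paxillin siRNA with vehicle, with no overlap (log2 fold change -0.46, SE 0.07, edgeR adjusted p = 2.44e-05). In nonspecific DHT it had 229, 240 and 217 CPM and in nonspecific vehicle 253, 266 and 254 CPM (log2 fold change -0.17, SE 0.07, edgeR adjusted p = 0.0428). The call under nonspecific siRNA did not hold without nonspecific vehicle replicate 1 (edgeR adjusted p = 0.0514), 2 (0.137) or 3 (0.0707), nonspecific DHT replicate 1 (0.0913) or 3 (0.175), the first paxillin vehicle library (0.0506), the second (0.0583), or paxillin DHT replicate 2 (0.0609), nor without the filter on low counts (0.126).

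**Figure D4:**
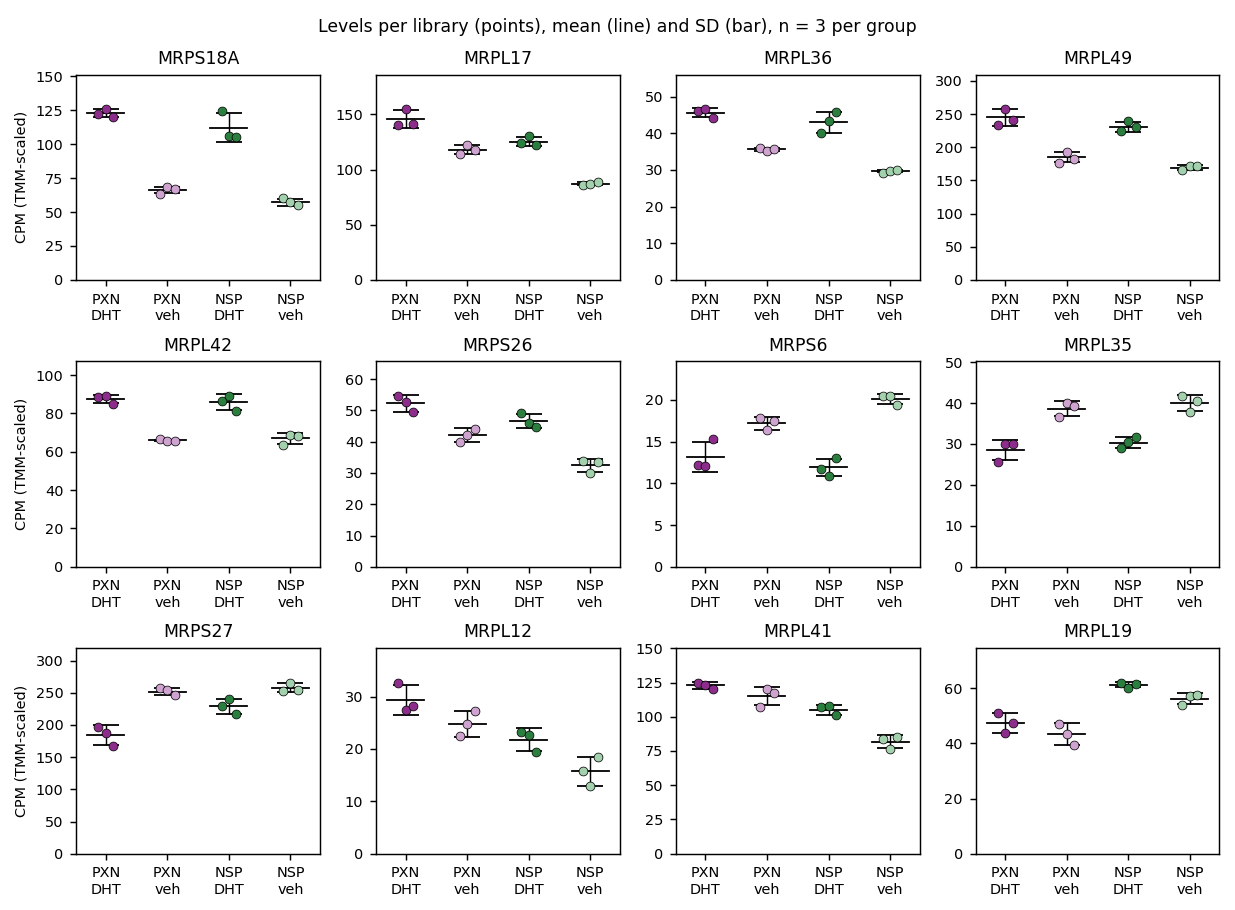
TMM-scaled CPM (y axis, from 0) of 12 genes in each library (points), with the group mean (line) and SD (bars), for paxillin (PXN) and nonspecific (NSP) siRNA with DHT and vehicle (veh), n = 3 per group. MRPS18A, MRPL36 and MRPL49 separate DHT from vehicle under both siRNAs, MRPL12 and MRPL41 are higher with paxillin siRNA under both treatments, and MRPL19 is lower.

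Paxillin siRNA in vehicle raised more of these genes than it lowered, and this split was the same under all 4 scalings. Of 78 genes 21 rose, 3 fell and 54 did not pass, while 20.5% of all genes passed, 10.7% upward and 9.78% downward. The median log2 fold change was 0.07, against -0.01 over all genes. All 3 paxillin libraries were higher than all 3 nonspecific libraries in 33 genes, against 18.1% of all genes, and lower in 6, against 17.7%. The 78 genes made up 0.512% to 0.538% of counts in paxillin siRNA with vehicle and 0.473% to 0.494% in nonspecific vehicle, with no overlap. The count of 24 called genes fell to 15 without nonspecific vehicle replicate 2, to 15 without paxillin vehicle replicate 2 and to 14 without paxillin vehicle replicate 3. The comparison shares its nonspecific vehicle libraries with that of DHT under nonspecific siRNA. These libraries gave the lowest of the 4 group means in 48 of the 78 genes (61.5%), against 26.2% of all genes.

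Under DHT the same siRNA gave 4 rises and 4 falls among the 78 genes, with 70 not passing, and 13.3% of all genes passed, 6.34% upward and 7% downward. The median log2 fold change was -0.00, with 0.00 over all genes. The count of 8 became 13 (7 rises and 6 falls) with the replicate number as a block, the added genes including MRPL16 (block adjusted p = 0.0042, edgeR). Without nonspecific DHT replicate 1, 2 or 3 it was 5, 4 or 3, and without paxillin DHT replicate 2 or 3 it was 4 or 5. Upper-quartile scaling gave 3 rises and 5 falls, and library totals 7 and 2. The 4 that rose are all among the 21 of the vehicle comparison (19% of them), and 2 of the 4 that fell are among the 3 there (66.7%). These 2 comparisons share no library.

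**Figure D5:**
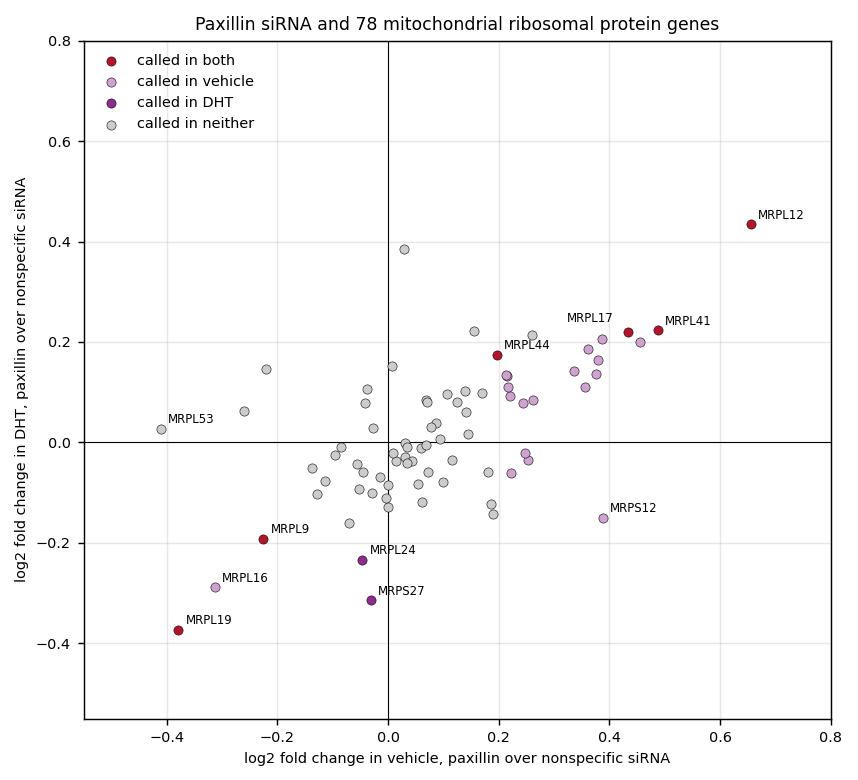
Log2 fold change, paxillin over nonspecific siRNA, of the 78 genes in vehicle (x axis) and in DHT (y axis), 1 point per gene, coloured by where the adjusted p was under 0.05. MRPL12 is the highest on both axes among called genes and MRPL19 the lowest, while MRPS12 lies at 0.39 in vehicle and -0.15 in DHT.

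MRPL12 had the largest rise with paxillin siRNA. Its product bL12m forms the flexible stalk that recruits translation factors, and it is also known to bind the mitochondrial RNA polymerase. It had 32.7, 27.4 and 28.2 CPM in paxillin siRNA with DHT and 23.3, 22.7 and 19.4 CPM in nonspecific DHT (log2 fold change 0.43, SE 0.12, edgeR adjusted p = 0.0185). In vehicle it had 22.4, 24.7 and 27.3 CPM with paxillin siRNA and 15.7, 13 and 18.5 CPM with nonspecific siRNA (log2 fold change 0.66, SE 0.12, edgeR adjusted p = 0.00105). The siRNA groups do not overlap in either treatment, and the call in DHT was lost without nonspecific DHT replicate 3 (edgeR adjusted p = 0.0866) or paxillin DHT replicate 1 (0.0666). Of its exon bases 68.2% overlap another annotated gene on the same strand, AC139530.2, for which no row was used here. The other stalk proteins did not pass with the siRNA: in vehicle, MRPL10 (uL10m) had a log2 fold change of 0.06 (SE 0.08, edgeR adjusted p = 0.631) and MRPL11 (uL11m) one of -0.00 (SE 0.08, edgeR adjusted p = 0.997). With DHT under nonspecific siRNA all 3 rose, by 0.47 (SE 0.12, edgeR adjusted p = 0.00508) for MRPL12, 0.33 (SE 0.08, edgeR adjusted p = 0.00221) for MRPL10 and 0.26 (SE 0.08, edgeR adjusted p = 0.0107) for MRPL11. MRPL10 was not called with library totals (edgeR adjusted p = 0.0573), nor was MRPL11 (0.261), which upper-quartile scaling also left out (0.0539).

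MRPL41 (mL41) had 125, 123 and 120 CPM in paxillin siRNA with DHT and 107, 108 and 101 CPM in nonspecific DHT. In vehicle it had 107, 120 and 117 CPM with paxillin siRNA and 83.6, 76.8 and 85.2 CPM with nonspecific siRNA. The siRNA groups are apart in both treatments, with log2 fold changes of 0.22 (SE 0.06, edgeR adjusted p = 0.0216) in DHT and 0.49 (SE 0.06, edgeR adjusted p = 5.23e-05) in vehicle. The call in DHT was lost without nonspecific DHT replicate 2 (edgeR adjusted p = 0.0503) or 3 (0.0886) and without paxillin DHT replicate 1 (0.0541) or 2 (0.0631). MRPL17, given above, had log2 fold changes of 0.22 (SE 0.06, edgeR adjusted p = 0.018) in DHT and 0.43 (SE 0.06, edgeR adjusted p = 9.3e-05) in vehicle, the call in DHT being lost without nonspecific DHT replicate 1 (0.0544) or 3 (0.0717) or paxillin DHT replicate 2 (0.107). Of the other genes, MRPL23, MRPL32, MRPL34, MRPL36, MRPS2, MRPS25, MRPS26 and MRPS34 rose in vehicle in every fit at an adjusted p under 0.05. Their log2 fold changes ran from 0.26 for MRPL36 to 0.45 for MRPL34. MRPL23 (edgeR adjusted p = 0.0112) did not pass at 0.01. MRPL32 encodes bL32m, whose maturation by a mitochondrial protease is a known step of ribosome assembly.

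MRPL19 (bL19m, large subunit) was the 1 member lower with paxillin siRNA in every alternative in both treatments. It had 50.9, 43.7 and 47.3 CPM in paxillin siRNA with DHT and 62.1, 60.2 and 61.5 CPM in nonspecific DHT (log2 fold change -0.37, SE 0.07, edgeR adjusted p = 0.00237). In vehicle it had 47.2, 43.3 and 39.3 CPM with paxillin siRNA and 53.9, 57.2 and 57.5 CPM with nonspecific siRNA (log2 fold change -0.38, SE 0.07, edgeR adjusted p = 0.0015). No paxillin library reached the level of a nonspecific library of the same treatment. MRPS27 was lower with paxillin siRNA in DHT, at the levels given above (log2 fold change -0.31, SE 0.07, edgeR adjusted p = 0.00397), and not in vehicle (-0.03, SE 0.07, edgeR adjusted p = 0.787). The difference between these is the interaction, which did not pass for MRPS27 (edgeR adjusted p = 0.391).

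MRPL16 (uL16m) and MRPL9 (bL9m) also fell in vehicle, with less certainty. MRPL16 had a log2 fold change of -0.31 (SE 0.1, edgeR adjusted p = 0.0297), not called without nonspecific vehicle replicate 1 (0.0898) or 2 (0.0784) or paxillin vehicle replicate 2 (0.0683) or 3 (0.121). MRPL9 had -0.22 (SE 0.06, edgeR adjusted p = 0.0172). This call was lost without nonspecific vehicle replicate 1 (0.0549), paxillin vehicle replicate 3 (0.114) or the low-count filter (0.0745). In DHT, MRPL9 stood at the threshold (log2 fold change -0.19, SE 0.06, edgeR adjusted p = 0.0497) and was not called by DESeq2 (0.0544) or limma-voom (0.0529), nor without nonspecific vehicle replicate 2 (0.0507) or 3 (0.0542), nonspecific DHT replicate 1 (0.148), 2 (0.0926) or 3 (0.0961). Nor was it called without replicate 2 of paxillin vehicle (0.0615) or replicate 2 (0.187) or 3 (0.125) of paxillin DHT. It was also lost with RLE scaling (0.0558), library totals (0.0969), no low-count filter (0.165) and a fit to the compared groups alone (0.0501). MRPL44 (mL44) had 0.18 in DHT (SE 0.06, edgeR adjusted p = 0.0466). It was not called without nonspecific vehicle replicate 3 or any 1 library of the nonspecific DHT, paxillin vehicle or paxillin DHT groups. Those fits gave adjusted p from 0.0568 to 0.138. The call was also lost with upper-quartile scaling (0.0534), no low-count filter (0.141) and a fit to the compared groups alone (0.058).

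A pair of genes passed in opposite directions in different comparisons. MRPL24 (uL24m) rose with DHT under nonspecific siRNA (log2 fold change 0.21, SE 0.07, edgeR adjusted p = 0.0235) and fell with paxillin siRNA in DHT (-0.23, SE 0.07, edgeR adjusted p = 0.0343), comparisons that share the nonspecific DHT libraries. Those libraries, at 146, 140 and 143 CPM, are above the 129, 127 and 108 CPM of paxillin DHT, the 123, 116 and 119 CPM of paxillin vehicle and the 134, 117 and 120 CPM of nonspecific vehicle. Neither call of MRPL24 held in every alternative: the first was lost without nonspecific vehicle replicate 2 (0.0984) or 3 (0.0773) or nonspecific DHT replicate 1 (0.0645) or 3 (0.0516), the second without nonspecific DHT replicate 1 (0.0966), 2 (0.0732) or 3 (0.0809) or paxillin DHT replicate 2 (0.0522) or 3 (0.165). With library totals neither passed (0.496 and 0.0508), and with upper-quartile scaling the first did not (0.115). MRPL58, the peptidyl-tRNA hydrolase that rescues stalled mitochondrial ribosomes, fell with DHT under paxillin siRNA (-0.24, SE 0.07, edgeR adjusted p = 0.0115) and rose with paxillin siRNA in vehicle (0.22, SE 0.07, edgeR adjusted p = 0.0334), which share the paxillin vehicle libraries. The first was lost without paxillin DHT replicate 3 (0.0557), the second without nonspecific vehicle replicate 1 (0.0724), 2 (0.0743) or 3 (0.0548) or paxillin vehicle replicate 2 (0.084) or 3 (0.117).

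The interaction asks whether DHT changed a gene by a different factor under paxillin siRNA. No member passed in edgeR, DESeq2 or limma-voom, 12 of 78 had an unadjusted p under 0.05, and the lowest adjusted p was 0.39. Over all genes 8 passed (0.0496%; 0.0372% positive and 0.0124% negative), and 8.9% had an unadjusted p under 0.05. The DHT log2 fold change was smaller under paxillin siRNA in 58 of 78 genes (74.4%), against 50.2% of all genes, and the interaction had a median of -0.07, with -0.00 over all genes. The most negative was MRPS12 (-0.54, SE 0.17, edgeR adjusted p = 0.387). MRPS27, MRPL41, MRPS18B and MRPL4, which had the next lowest p, lay between -0.28 and -0.26. MRPS6, which fell less with DHT under paxillin siRNA, had 0.37 (SE 0.14, edgeR adjusted p = 0.466). For none of these is a difference in DHT response shown.

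Both ribosomal subunits took part. With DHT under nonspecific siRNA, 22 of 51 large-subunit genes rose and 1 fell (median log2 fold change 0.15), and 11 of 26 small-subunit genes rose and 2 fell (median 0.09). With paxillin siRNA in vehicle, 15 large-subunit genes rose and 3 fell (median 0.06), and 6 small-subunit genes rose and 0 fell (median 0.09). Of 46 subunits with a bacterial counterpart 20 rose with DHT under nonspecific siRNA, and of 31 gained by mitochondria 13 rose, with medians of 0.15 and 0.13. MRPS30 (mL65), the second protein that sits in the large subunit despite its symbol, had log2 fold changes of 0.21 under paxillin siRNA (SE 0.07, edgeR adjusted p = 0.0259) and 0.31 under nonspecific siRNA (SE 0.07, edgeR adjusted p = 0.00214). The call under nonspecific siRNA was lost with library totals (0.0873). That under paxillin siRNA was lost with library totals (0.398), upper-quartile scaling (0.181) or no low-count filter (0.0543). It was also lost without replicate 2 (0.0648) or 3 (0.106) of paxillin vehicle or replicate 1 (0.134) or 3 (0.0741) of paxillin DHT. MRPS36, the member outside the ribosome, had 0.29 under nonspecific siRNA (SE 0.1, edgeR adjusted p = 0.024). It was not called with upper-quartile scaling (0.0953), library totals (0.3) or a fit to the compared groups alone (0.0547). Nor was it called without nonspecific vehicle replicate 1 (0.0967) or 3 (0.0748) or nonspecific DHT replicate 2 (0.0662) or 3 (0.0636).

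By their GENCODE gene edges, many of these genes share a start region with a gene on the other strand. These edges are not always the RefSeq starts used in the motif search above, and the count below was not repeated with RefSeq starts. A divergent partner within 1000 bases stood beside 17 of 78 (21.8%), against 9.73% of 12634 tested protein-coding genes. The pair MRPL46 and MRPS11, 34 bases apart by these edges, is made of 2 members. The GENCODE edge of MRPL36 lies 34 bases from NDUFS6, a respiratory complex I subunit gene. With DHT, NDUFS6 had log2 fold changes of 0.03 under paxillin siRNA (edgeR adjusted p = 0.74) and 0.18 under nonspecific siRNA (0.027), less than MRPL36 itself. That edge, at 1801366, lies outside the MRPL36 window searched for motifs (1799788 to 1800087). MRPL41 was also counted by an edge (137551199) outside its searched window (137551629 to 137551928). So was MRPS11, by an edge at 88467453 with a window from 88467458 to 88467757. MRPS34 rose by 0.30 under nonspecific siRNA (edgeR adjusted p = 0.003, and 0.094 with library totals) while its partner EME2, 52 bases away, fell by 0.28 (adjusted p = 0.026).

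Genes that work with the mitochondrial ribosome gave a mixed picture. The shares of all genes that passed, given above, were 40.5% and 38% for DHT under nonspecific and paxillin siRNA and 20.5% and 13.3% for paxillin siRNA in vehicle and in DHT. Of 5 subunits with other symbols, 3 rose with DHT under nonspecific siRNA and 3 with paxillin siRNA in vehicle, and none fell. GADD45GIP1 (mL64) rose in both, by log2 fold changes of 0.40 (SE 0.07, edgeR adjusted p = 0.000164) with DHT and 0.40 (SE 0.07, edgeR adjusted p = 0.000681) with the siRNA. Of 26 assembly factors 7 rose and 2 fell with DHT under nonspecific siRNA (5 and 6 with upper-quartile scaling, 5 and 8 with library totals), and 5 rose and 0 fell with paxillin siRNA in vehicle. Counting both directions, these shares lay below those of all genes. The rising shares lay above the 21.6% and 10.7% of all genes that rose in these comparisons. MTERF4, which works with NSUN4 in large-subunit assembly, rose with DHT under both siRNAs, by 0.63 (SE 0.07, edgeR adjusted p = 1.84e-06) under paxillin and 0.40 (SE 0.08, edgeR adjusted p = 0.000377) under nonspecific siRNA. NGRN (neugrin), which acts on the large ribosomal RNA, was higher with paxillin siRNA by 0.52 (SE 0.07, edgeR adjusted p = 9.7e-05) in DHT and 0.50 (SE 0.07, edgeR adjusted p = 8.6e-05) in vehicle.

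Of 21 translation factors, 4 rose and 1 fell with DHT under nonspecific siRNA, 5 and 3 under paxillin siRNA, 5 and 2 with paxillin siRNA in vehicle, and 1 and 2 in DHT. With library totals the splits were 2 and 5, 1 and 6, 5 and 2, and 5 and 1, and upper-quartile scaling gave 2 and 5 for DHT under paxillin siRNA. C12orf65, a rescue factor of stalled mitochondrial ribosomes, rose with DHT by 0.53 (SE 0.09, edgeR adjusted p = 0.000136) under paxillin siRNA and 0.76 (SE 0.09, edgeR adjusted p = 3.92e-06) under nonspecific siRNA. GFM2, a ribosome recycling factor, fell by 0.25 under each (SE 0.05 and 0.06, edgeR adjusted p = 0.00142 and 0.00136). Of 13 regulators of mitochondrial biogenesis, 4 rose and 2 fell with DHT under nonspecific siRNA (1 and 4 with library totals, 3 and 3 with upper-quartile scaling), and 4 rose and 1 fell with paxillin siRNA in vehicle. NRF1, whose motif was searched above, fell with DHT under nonspecific siRNA (log2 fold change -0.41, SE 0.1, edgeR adjusted p = 0.00315) and with paxillin siRNA in vehicle (-0.49, SE 0.1, edgeR adjusted p = 0.00213). It had 13.3, 12.8 and 15.9 CPM in paxillin DHT, 15, 12.7 and 14.1 CPM in paxillin vehicle, 15.3, 13.7 and 15.2 CPM in nonspecific DHT, and 20.9, 19.1 and 19 CPM in nonspecific vehicle. Nonspecific vehicle is thus its highest group, the one in which most mitochondrial ribosomal protein genes had their lowest mean.

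PPARGC1A, the coactivator PGC-1 alpha, was scarce, with 2 to 37 counts per library, and higher with paxillin siRNA. It had 0.787, 0.866 and 0.66 CPM in paxillin DHT and 0.0857, 0.218 and 0.187 CPM in nonspecific DHT (log2 fold change 2.20, SE 0.41, edgeR adjusted p = 0.00196). In vehicle it had 1.12, 1.24 and 1.34 CPM with paxillin siRNA and 0.245, 0.581 and 0.414 CPM with nonspecific siRNA (log2 fold change 1.47, SE 0.34, edgeR adjusted p = 0.00495). POLRMT, the mitochondrial RNA polymerase, was higher with paxillin siRNA in vehicle (log2 fold change 0.39, SE 0.08, edgeR adjusted p = 0.00343).

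The 13 messenger RNAs of mitochondrial DNA, the templates of this ribosome, gave 0 calls in every comparison by edgeR with TMM scaling and by DESeq2. With DHT under nonspecific siRNA 4 of them had an unadjusted p under 0.05, against 48.1% of all genes, limma-voom called 1, and their median log2 fold change was -0.26. Upper-quartile scaling gave 5 falls there and library totals 11. With DHT under paxillin siRNA 1 had an unadjusted p under 0.05, against 45.7% of all genes, with a median of -0.11, and these scalings gave 1 and 2 falls. With paxillin siRNA 0 had an unadjusted p under 0.05 in vehicle, against 32.9% of all genes, and 3 in DHT, against 27.9%. Among the 85 tested genes of the cytosolic ribosome, 19 rose and 0 fell with DHT under nonspecific siRNA (median log2 fold change 0.18). Of all genes 21.6% rose and 18.9% fell, so the rising share was near that of all genes. For the cytosolic genes, upper-quartile scaling gave 5 and 1, and library totals 3 and 1. With DHT under paxillin siRNA 4 rose and 0 fell (median 0.03), while 20.1% and 17.9% of all genes did. There upper-quartile scaling gave 3 and 2, and library totals 2 and 3. With paxillin siRNA in vehicle 0 rose and 2 fell (median -0.07), while 10.7% and 9.78% of all genes did. In that comparison 21 mitochondrial ribosomal protein genes rose. With paxillin siRNA in DHT 0 cytosolic ribosomal protein genes rose and 8 fell (median -0.22), while 6.34% and 7% of all genes did. Of the 85 genes 49 had an unadjusted p under 0.05, against 27.9% of all genes. Upper-quartile scaling gave 14 falls and library totals 5.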

How the data were processed

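The authors deposited raw counts per gene symbol for 12 libraries in 4 groups of 3. The values are whole numbers with unequal totals, and all columns were mapped to a sample. Trimmomatic 0.36, STAR 2.5.2b, Subread 1.5.0p3, featureCounts and the build GRCh38 are listed, without roles, per the submitters' processing notes. Per the labels' protocols the library kit was stranded. Neither the annotation release nor the counting's strand setting is stated in the sources at hand, so genes with overlapping exons are reported as uncertain.

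Counts were tested in R 4.3.3 with edgeR 4.0.16 (filterByExpr with minimum count 10 and minimum total 15, TMM scaling, quasi-likelihood fit of 4 group means to all 12 libraries, Benjamini-Hochberg over 16115 genes, adjusted p under 0.05). SEs were derived from the F statistic. CPM uses TMM-scaled totals, and lengths are exon unions of GENCODE 29, which matched all 78 members. Depth was 11944906 to 32040465 counts. Promoter windows came from RefSeq. The fit was tested on simulated counts.

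The members, gene lists and subunit classes were chosen with earlier results of these data known. Genes named were, per comparison, the 6 largest rises and falls called, the 5 highest and 5 lowest per kilobase, the stalk proteins, members placed outside their symbol's subunit, opposite calls, and up to 2 rising and 2 falling members of each other list. The 6 genes called upward with DHT under both siRNAs and all scalings were added after their values were seen. So were other genes called in every fit, the divergent pairs and the paralogs.

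Other settings tried: scaling by RLE or upper quartile, dropping the filter, DESeq2 1.42.0, limma-voom 3.58.1, the replicate number as a block, a fit to only the 2 groups compared, a stricter threshold (0.01), leaving out each library and, chosen after seeing the data, library totals without a scaling factor. Libraries with the same replicate number tended to vary together. The 18 same-numbered pairs had correlations of deviations (10701 genes) between 0.15 and 0.49 (median 0.27). The 36 others had -0.42 to 0.22 (median -0.12), so the ranges overlap. The main fit leaves the replicate number out, so its p-values and SEs ignore any such pairing. Replicates differed beyond sampling noise (chi-square per degree of freedom 6.16 to 18.6).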

Additional observations from a re-analysis of the deposited data

How the results depend on the processing

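With DHT under nonspecific siRNA the count of 37 called members was 23 with upper-quartile scaling, 23 with library totals (chosen after seeing the data) and 21 at an adjusted p under 0.01. With paxillin siRNA the count was 11 of 24 in vehicle and 2 of 8 in DHT at an adjusted p under 0.01. In DHT the replicate block gave 13, and with that block no call was lost in any comparison (39, 21, 26, 13 and 0 called). Leaving out each library gave 27 to 37 and 12 to 17 called for DHT under nonspecific and paxillin siRNA, 14 to 24 and 3 to 8 for paxillin siRNA in vehicle and in DHT, and 0 for the interaction. The cause of these shifts was not tested, apart from the stricter threshold and the smaller samples that the settings themselves impose. No called member changed sign. Of the calls, 12 of 37, 9 of 16, 12 of 24 and 2 of 8 held at an adjusted p under 0.05 in every fit, in the same order of comparisons. Depth limits MRPS24, MRPL38 and MRPL53 most.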
